A study of Mus musculus with 12 samples.

Results

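The genes described here are 6 transcripts, several of which mouse neutrophils or activated macrophages make: the chitinase-like genes Chil3 and Chil4, the stefin gene Stfa2l1, the whey acidic protein family gene Wfdc21, and the receptor genes Cxcr2 and Csf3r. They are 6 of the 17097 genes measured, and they were selected on their measured values in this series, where they were high in dendritic cells of miR-142 knockout (KO) mice relative to wild type (WT). Their KO to WT differences are therefore a description and carry no test here, whereas the response to lipopolysaccharide (LPS) was tested. The LPS tests that use KO arrays share values with that selection, so they are not independent of it. The study measured RNA of dendritic cells (DCs), the antigen-presenting cells that prime T cells, on 12 Affymetrix arrays. There were 4 groups of 3 arrays each, namely KO mice with LPS, KO mice unstimulated, WT mice with LPS and WT mice unstimulated. All mice were 10-week-old C57BL/6 males, the genotypes were littermates, and each array held DCs taken by positive selection from an individual spleen. The sources used here do not give how the KO allele was made, which marker served the selection, or the dose and duration of LPS. The free-text descriptions of the samples speak of T cells, whereas the titles and the cell type field speak of DCs.

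Chil3 and Chil4 encode secreted proteins, also called Ym1 and Ym2, that keep the fold of a chitinase and bind sugars but do not cut chitin. Stefins are small intracellular proteins that block cysteine proteases such as cathepsins, and the whey acidic protein fold of Wfdc21 is best known from inhibitors of serine proteases such as Slpi. Cxcr2 binds the chemokines Cxcl1 and Cxcl2 and draws neutrophils out of bone marrow and into inflamed tissue. Csf3r is the receptor for granulocyte colony-stimulating factor (G-CSF, gene Csf3), which drives the making of neutrophils through Jak and Stat proteins. In bulk RNA, more cells of a type and more RNA per cell cannot be told apart.

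The knocked-out locus makes 1 hairpin with 2 mature microRNAs, which blood cells of most lineages express. They are shown because their absence defines the KO groups. Sequences are from RefSeq on build GRCm38.p6, written 5′ to 3′ with the seed, bases 2 to 8, in capitals, and lie at chr11:87756867-87756887 and chr11:87756903-87756925 on the plus strand.
mmu-miR-142a-5p: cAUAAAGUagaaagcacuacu
mmu-miR-142a-3p: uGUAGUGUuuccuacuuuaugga
The seeds differ. The microRNA itself was not measured by a probe set with a single symbol, so the knockout was not checked at its own locus.

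Promoter windows of 300 bases, 250 before and 50 after the annotated start of the gene, were found in RefSeq for 5 of the 6 genes, with Wfdc21 having no entry in the table used here. The windows of Chil3 (chr3:106167515-106167814, minus strand) and Chil4 (chr3:106219430-106219729, minus strand) are printed because these genes are near copies. Most of each window lies before the start of the gene, so the windows do not show what the probes read. Probe sequences were not looked at. Capitals mark 3 patterns searched on both strands, whose matches do not overlap in these windows. They are TATAAA, the common core promoter box, then a pattern of STAT factors written TTCNNNGAA, and a pattern of C/EBP factors written TTGCNNAA.
Chil3: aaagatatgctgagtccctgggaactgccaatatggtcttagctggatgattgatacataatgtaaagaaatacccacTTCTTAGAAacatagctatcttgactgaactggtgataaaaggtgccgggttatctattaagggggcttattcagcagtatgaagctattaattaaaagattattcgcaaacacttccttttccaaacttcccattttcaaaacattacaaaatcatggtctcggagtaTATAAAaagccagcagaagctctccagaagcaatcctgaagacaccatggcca
Chil4: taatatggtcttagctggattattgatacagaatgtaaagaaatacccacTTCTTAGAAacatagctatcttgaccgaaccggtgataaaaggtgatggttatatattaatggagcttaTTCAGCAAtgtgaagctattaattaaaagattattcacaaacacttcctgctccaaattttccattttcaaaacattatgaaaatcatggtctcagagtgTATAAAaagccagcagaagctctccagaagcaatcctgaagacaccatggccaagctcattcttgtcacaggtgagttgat
The best local alignment of the 2 windows had 251 identical columns of 272 (92.28%), with 19 mismatches and 2 gap columns. Both windows held 1 TATAAA, found in 13.6% of the 32851 windows in the table, and 1 TTCNNNGAA, found in 8.30%. The C/EBP letters, found in 10.8% of windows, were in the Chil4 window and not in that of Chil3.

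The windows of the receptor genes Cxcr2 (chr1:74153744-74154043, plus strand) and Csf3r (chr4:126024409-126024708, plus strand) are shown because both were lower with LPS in every pair of arrays, as described further on. Capitals mark GAGGAA, the core that the myeloid factor PU.1 binds, on either strand.
Cxcr2: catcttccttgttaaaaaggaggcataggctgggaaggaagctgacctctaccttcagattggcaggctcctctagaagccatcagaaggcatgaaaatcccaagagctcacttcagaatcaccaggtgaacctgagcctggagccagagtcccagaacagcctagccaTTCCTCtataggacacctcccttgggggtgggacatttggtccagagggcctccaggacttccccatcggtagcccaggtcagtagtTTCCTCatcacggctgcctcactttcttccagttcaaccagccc
Csf3r: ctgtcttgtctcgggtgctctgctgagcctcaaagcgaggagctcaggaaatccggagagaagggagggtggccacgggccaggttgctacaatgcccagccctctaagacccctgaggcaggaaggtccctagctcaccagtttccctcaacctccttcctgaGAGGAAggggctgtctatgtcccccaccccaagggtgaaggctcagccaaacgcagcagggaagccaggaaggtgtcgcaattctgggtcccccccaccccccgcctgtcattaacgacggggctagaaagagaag
GAGGAA occurred at 2 places in the Cxcr2 window, 1 in that of Csf3r and 2 in that of Stfa2l1 (chr16:36156561-36156860, plus strand), and in 28.3% of all windows. None of these 3 windows held the other patterns, and none of the chitinase-like windows held GAGGAA. These are matches of letters, and binding was not measured.

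Chil3 was higher in KO than in WT DCs on every array. Its log2 signal, the unit of all levels below, was 8.44, 8.67 and 5.96 in KO with LPS and 8.32, 8.80 and 5.88 in KO unstimulated (arrays 1, 2 and 3 of each group). It was 2.85, 3.37 and 2.33 in WT with LPS and 2.71, 3.30 and 1.94 in WT unstimulated. The lowest KO array lay 2.59 above the highest WT array with LPS and 2.58 above it unstimulated. The mean of Chil3 was 7.69 ± 1.50 in KO with LPS, 7.67 ± 1.56 in KO unstimulated, 2.85 ± 0.52 in WT with LPS and 2.65 ± 0.68 in WT unstimulated (SD, n = 3 each). The KO minus WT difference was 4.84 with LPS and 5.01 unstimulated, a ratio of 28.7 and 32.3. Both WT means were below 3.14, the median gene, where signal is close to background and a ratio is less certain.

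Chil4 read differently on its 2 probe sets. The probe set used for the gene carries the name suffix (s_at) that the array maker gives to probes shared with other transcripts, and it read 8.09, 7.16 and 5.62 in KO with LPS and 8.04, 8.85 and 5.72 in KO unstimulated. In WT it read 3.42, 3.44 and 3.25 with LPS and 3.29, 3.49 and 2.97 unstimulated, so the genotypes did not overlap. The second probe set, without that suffix, read 1.91, 2.33 and 1.72 in KO with LPS, 2.07, 2.41 and 1.95 in KO unstimulated, 1.80, 1.89 and 1.83 in WT with LPS and 1.84, 1.91 and 1.99 in WT unstimulated. Here the genotypes overlapped, and all 12 values were under the median gene. The KO minus WT difference was 3.59 with LPS and 4.29 unstimulated on the first probe set, against 0.14 and 0.23 on the second. The signal of the first cannot be assigned to Chil4 rather than Chil3 from these arrays, and what is given for Chil4 below is the signal of that probe set.

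Stfa2l1 also separated the genotypes. It measured 8.13, 9.0 and 4.93 in KO with LPS and 8.19, 8.97 and 5.36 in KO unstimulated. In WT it measured 3.63, 3.69 and 2.56 with LPS and 3.91, 3.41 and 2.13 unstimulated, with means of 3.30 and 3.15 near the median gene, 3.14. The gap between the lowest KO and the highest WT array was 1.24 with LPS and 1.46 unstimulated, smaller than the distance of 3.64 and 3.22 between the mean of KO arrays 1 and 2 and KO array 3. The KO minus WT difference was 4.06 with LPS and 4.36 unstimulated. Mouse stefin A genes are close copies of each other, so a probe set named for 1 may read others.

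Wfdc21 was flat across WT arrays and spread widely across KO arrays. It measured 7.75, 9.08 and 4.67 in KO with LPS and 7.64, 7.90 and 4.80 in KO unstimulated. The 6 WT arrays held 3.09, 3.23 and 3.23 with LPS and 2.97, 2.82 and 2.94 unstimulated, an SD of 0.08 in each group, against 2.26 in KO with LPS and 1.72 in KO unstimulated. These WT values lie near the median gene, 3.14, where signal is close to background. The KO minus WT difference was 3.98 with LPS and 3.87 unstimulated.

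The 2 receptor genes had the smallest KO to WT differences of the 6. Cxcr2 measured 4.48, 4.98 and 2.68 in KO with LPS and 4.98, 5.83 and 3.20 in KO unstimulated. In WT it measured 3.04, 3.05 and 2.13 with LPS and 3.16, 3.06 and 2.35 unstimulated. Both WT means, 2.74 with LPS and 2.86 unstimulated, were below the median gene, 3.14. KO array 3 lay 0.37 below the highest WT array with LPS, so the genotypes overlapped there, and only 0.04 above it unstimulated. The KO minus WT difference of Cxcr2 was 1.31 with LPS and 1.81 unstimulated.

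Csf3r measured 6.61, 5.94 and 4.85 in KO with LPS and 7.17, 7.39 and 5.12 in KO unstimulated. In WT it measured 4.55, 4.75 and 3.48 with LPS and 4.92, 4.95 and 3.81 unstimulated. The lowest KO array, array 3, lay 0.10 above the highest WT array with LPS and 0.16 above it unstimulated. The KO minus WT difference of Csf3r was 1.54 with LPS and 1.99 unstimulated.

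**Figure D1:**
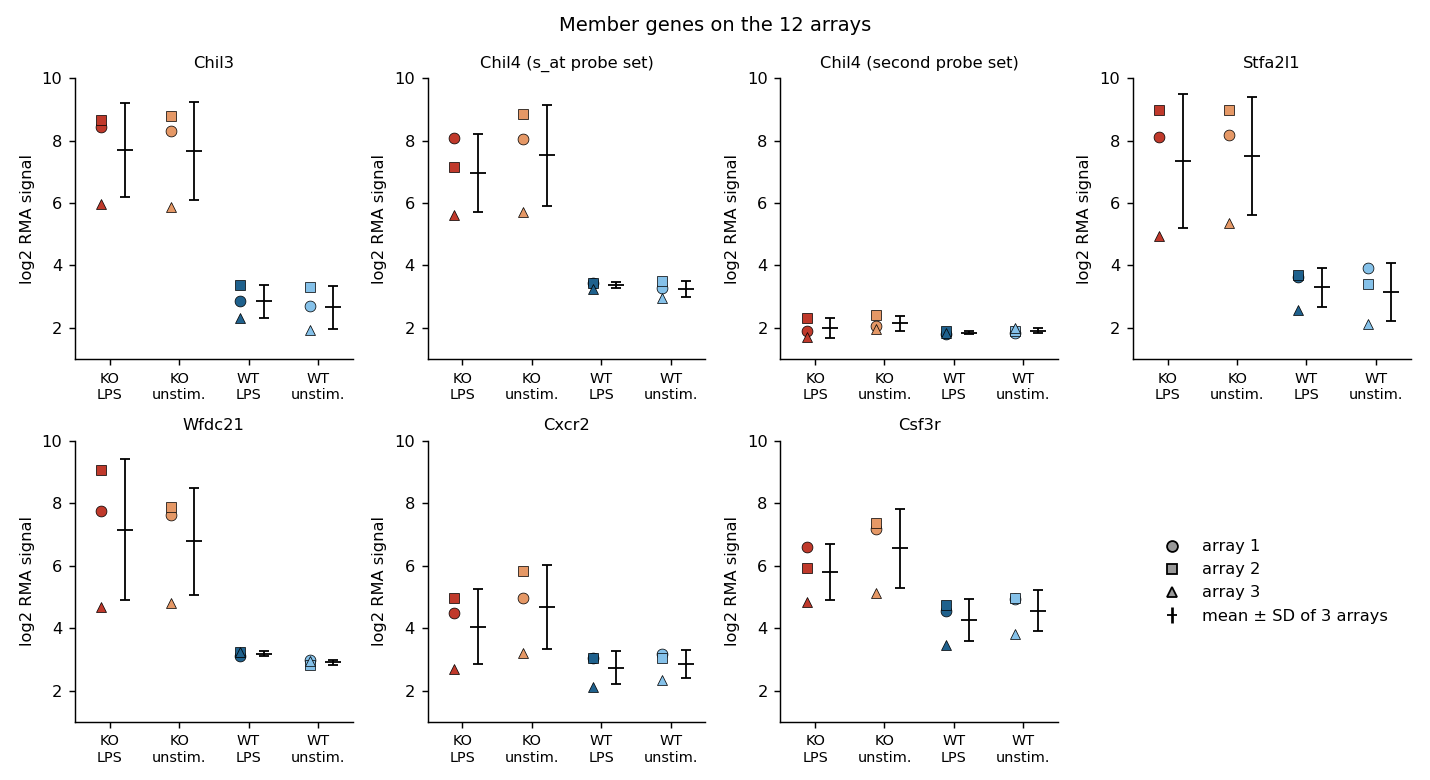
Log2 RMA signal (vertical axis) of each probe set of the 6 genes by group (horizontal axis), with a point per array shaped by array number and the mean ± SD of 3 arrays beside it. In both KO groups the triangle, array 3, is the lowest point in every panel, and the second Chil4 probe set stays near 2 in all groups.

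Over the 6 genes the median KO minus WT difference was 3.78 with LPS and 4.08 unstimulated, against -0.03 and -0.0006 for all genes. All 3 KO arrays lay above all 3 WT arrays for 5 of 6 genes with LPS, where 6.92% of all genes did, and for 6 of 6 unstimulated, where 8.99% of all genes did. The genes were selected on this difference, so these counts show what was selected. Across all genes, limma called 0.445% between genotypes with LPS and 0.252% unstimulated at an adjusted p under 0.05. By mean level, both KO groups stood above both WT groups for each gene. Within KO, the mean with LPS was the higher for Chil3 and Wfdc21 and the unstimulated mean for Chil4, Stfa2l1, Cxcr2 and Csf3r. Within WT, the mean with LPS was the higher for Chil3, Chil4, Stfa2l1 and Wfdc21 and the unstimulated mean for the 2 receptor genes. These neighbouring means lay closer together than the larger of their SDs, except for Wfdc21 in WT, which averaged 3.19 ± 0.08 with LPS and 2.91 ± 0.08 unstimulated (SD, n = 3 each). Both of these Wfdc21 means lie near the median gene, where signal is close to background.

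The KO arrays did not share 1 level. Array 3 was the lowest of its group for 6 of 6 genes in KO with LPS and for 6 of 6 in KO unstimulated. The mean over the 6 genes was 7.25, 7.47 and 4.79 in KO with LPS and 7.39, 7.96 and 5.01 in KO unstimulated. In WT, array 3 was the lowest for 5 of 6 genes in each group, with means of 3.43, 3.59 and 2.83 with LPS and 3.49, 3.51 and 2.69 unstimulated. Arrays of 1 number in the 2 KO groups thus stood at like levels, and the low arrays bear the same number under both treatments. Without KO array 3 the median KO minus WT difference over the genes was 4.74 with LPS and 5.03 unstimulated.

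Array 2 of KO with LPS stood apart across the whole array. Its correlation with the other 11 arrays ran from 0.936 to 0.958, where all further pairs of arrays had 0.967 to 0.991. The Gapdh probe set at the 3′ end read 3.04 above the one in mid-transcript, a gap of 1.53 to 1.86 on the remaining arrays. It was the highest of its group for 4 of 6 genes and the lowest for 0. Without it the KO minus WT median with LPS was 3.13. The part of this array's RNA quality in its values was not tested.

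Markers of cell types were set beside the genes array by array. DC markers were present throughout, with Itgax (CD11c) between 6.69 and 7.59, Flt3 between 5.42 and 6.38, Zbtb46 between 5.86 and 7.39 and H2-Ab1 between 8.93 and 9.46 over the 12 arrays. The mean of the 15 measured DC markers was 6.34, 6.00 and 6.43 in KO with LPS and 6.34, 6.40 and 6.40 in KO unstimulated, with a range of 6.41 to 6.50 in WT with LPS and 6.42 to 6.45 in WT unstimulated. By limma 1 of these 15 was called, Xcr1, the chemokine receptor of cross-presenting DCs, which was lower in KO with LPS (-0.78, adjusted p = 0.0494), and the list medians were -0.25 with LPS and -0.05 unstimulated.

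The neutrophil list, though not each of its markers, moved with the 6 genes. Its mean over 22 measured markers of 25 was 6.78, 6.74 and 4.89 in KO with LPS and 6.81, 7.16 and 4.98 in KO unstimulated, against 4.08, 4.06 and 3.51 in WT with LPS and 4.13, 3.97 and 3.43 in WT unstimulated. Array 3 was again the low array of each group. All 3 KO arrays lay above all 3 WT arrays for 16 of the 22 markers with LPS and 17 unstimulated. By limma the granule protein genes Ngp, Camp and Lcn2 were called higher in KO in both comparisons, 3 of 22 markers with a list median of 2.20 with LPS and 2.45 unstimulated. Ngp was between 2.80 and 9.97 over the 12 arrays, S100a8 between 4.90 and 10.8, and 3 of the 22 markers lay under the median gene in every group. Il1r2 went the other way, at -0.22 between KO and WT with LPS and -0.19 unstimulated. Elane differed by only 0.32 with LPS and 0.64 unstimulated.

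Other lists varied in other ways, some with a low array 3 and some without. The mean of 9 measured natural killer (NK) cell markers was also higher in KO, at 5.38, 5.30 and 5.50 with LPS and 5.33, 5.54 and 5.37 unstimulated, against 4.19, 3.96 and 3.57 in WT with LPS and 4.09, 3.97 and 3.40 in WT unstimulated, with 4 of 9 called higher by limma in each comparison (Klra8, Klra9 and Gzmb in both, Eomes with LPS and Gzma unstimulated), and KO array 3 was not low there. Other NK markers were not called. Klrk1 and Prf1 differed by -0.27 and -0.42 between KO and WT with LPS and by 0.04 and 0.03 unstimulated. Ncr1 and Klrb1c were higher in KO by 0.56 and 0.37 with LPS and by 0.65 and 0.43 unstimulated. The erythroid, monocyte and eosinophil list means were lowest on array 3 in each group. The mean of 4 erythroid markers was 6.60, 6.92 and 6.21 in KO with LPS and 6.65, 7.25 and 6.13 in KO unstimulated, against 6.83, 5.78 and 4.90 in WT with LPS and 6.67, 5.59 and 4.90 in WT unstimulated. The mean of 9 monocyte markers was 4.99, 4.81 and 4.67 in KO with LPS and 5.03, 5.03 and 4.81 in KO unstimulated, against 4.44, 4.43 and 4.18 in WT with LPS and 4.49, 4.43 and 4.35 in WT unstimulated. By limma 0 of these 9 were called with LPS and 1 unstimulated, Ly6c1 (1.27 higher in KO, adjusted p = 0.0372), and all KO arrays lay above all WT arrays for 4 with LPS and 5 unstimulated. The mean of 5 eosinophil markers was 3.14, 3.31 and 3.03 in KO with LPS and 3.17, 3.48 and 3.01 in KO unstimulated, against 3.19, 2.97 and 2.85 in WT with LPS and 3.09, 2.86 and 2.70 in WT unstimulated. Siglecf averaged 2.87 in KO with LPS and 3.01 in KO unstimulated, against 2.06 in WT with LPS and 1.98 in WT unstimulated, and was not called (limma adjusted p = 0.477 with LPS and 0.581 unstimulated), while the eosinophil granule genes Epx and Prg2 stayed between 1.92 and 2.34 and between 2.58 and 3.59. Of the genes that alternatively activated macrophages make together with Chil3, Retnla averaged 5.65 in KO with LPS and 5.50 in KO unstimulated, against 4.60 in WT with LPS and 4.50 in WT unstimulated, differences of 1.06 and 1.00 that were not called (limma adjusted p = 0.0832 and 0.138). Arg1 ran from 2.63 to 3.12 over the 12 arrays. The mean of 15 macrophage markers, 0 of them called, ran from 5.84 to 6.04 in KO with LPS, 5.85 to 6.42 in KO unstimulated, 5.44 to 6.25 in WT with LPS and 5.42 to 6.37 in WT unstimulated. The part of any of these cell types in the 6 genes' levels was not tested.

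**Figure D2:**
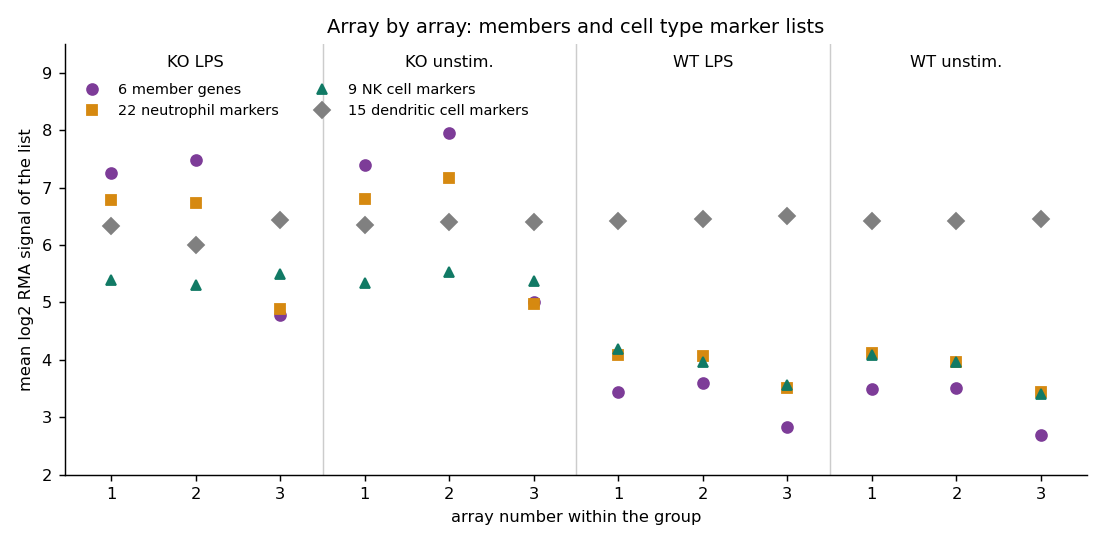
Mean log2 RMA signal (vertical axis) of the 6 genes and of 3 marker lists on each of the 12 arrays, by array number within group (horizontal axis). The 6 genes and the neutrophil markers are both low on array 3 of the KO groups, at 4.79 and 4.89 with LPS and 5.01 and 4.98 unstimulated, whereas the NK markers are at 5.50 and 5.37 there.

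LPS, a bacterial cell wall product sensed by Tlr4, did not move any of the 6 genes past the test. In KO, 0 of 6 were called by limma, where 0.392% of all genes were, and in WT 0 of 6, where 0.117% of all genes were. The difference between the LPS effects of the 2 genotypes, KO minus WT, was called for 0 of 6, with 0.0% of all genes. At an unadjusted p under 0.05 the counts were also 0 in the 3 comparisons, and the limma adjusted p of these tests ran from 0.741 to 0.9997. The median LPS difference of the 6 genes was -0.37 in KO and 0.13 in WT, against -0.02 and 0.0027 for all genes. These tests treat the arrays as separate, so the spread between KO arrays enters each of them, and intervals were wide.

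Chil3 differed by 0.03 between LPS and unstimulated in KO (95% interval -1.65 to 1.71) and by 0.20 in WT (-1.48 to 1.87). The interval of Stfa2l1 was -2.36 to 2.05 in KO around -0.15, and that of Wfdc21 was -1.66 to 2.42 around 0.38. Such intervals do not show that the genes respond alike or not at all.

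Same-numbered arrays within a genotype deviated from their group means together over all genes, with correlations of 0.305, 0.284 and 0.440 in KO and 0.385, 0.230 and 0.422 in WT, and were compared as pairs as well. Cxcr2 was lower with LPS in 6 of 6 pairs, by 0.50, 0.85 and 0.52 in KO (-0.62 ± 0.20 on average, SD, n = 3) and by 0.12, 0.0048 and 0.23 in WT (-0.12 ± 0.11, SD, n = 3). The share of all genes that were lower in every pair was not counted, so this count has no background to be read against. With each pair as a block, the Cxcr2 difference in KO was -0.62 (95% interval -0.88 to -0.37, limma adjusted p = 0.0362), against adjusted p = 0.814 without the block. Over all genes the block raised the number called for LPS in KO from 67 to 148 of 17097. The Cxcr2 call rests in part on array 2 of KO with LPS, since without that array the blocked difference was -0.51 with limma adjusted p = 0.0877. With the pairs as a random block the adjusted p was 0.682. Under the fixed block the difference between the LPS effects of the genotypes was -0.51 for Cxcr2 with limma adjusted p = 0.811, so a larger effect in KO was not shown. These fits use the KO arrays whose high values led to the choice of the genes.

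Csf3r was also lower with LPS in 6 of 6 pairs, by 0.56, 1.45 and 0.27 in KO and by 0.37, 0.20 and 0.33 in WT. Its difference was -0.76 in KO (95% interval -2.06 to 0.54, limma adjusted p = 0.741) and -0.30 in WT (-1.60 to 1.00, adjusted p = 0.9997), and with the block it was not called in KO either (limma adjusted p = 0.125). The other 4 genes had no such shared direction, with Chil3 and Wfdc21 higher with LPS in 5 of 6 pairs and Chil4 and Stfa2l1 in 3 of 6. Array 2 gave the extreme KO pair for Chil4 (-1.69) and Wfdc21 (1.18), where the other KO pairs lay between -0.14 and 0.10.

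**Figure D3:**
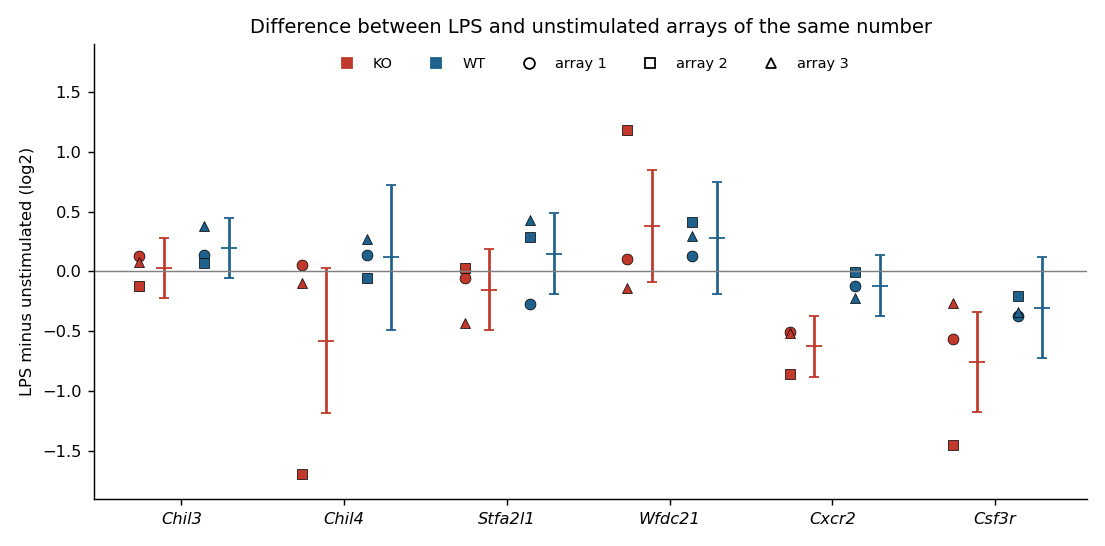
LPS minus unstimulated log2 signal (vertical axis) for each of the 6 genes (horizontal axis), in KO and WT, with a point for each pair of same-numbered arrays and, beside them, the mean with its 95% interval from the fit with pairs as a block. The points of Cxcr2 and Csf3r lie below 0 in all 6 pairs, and the largest KO deviations of Chil4, Wfdc21 and Csf3r are those of array 2.

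The families and pathways around the 6 genes were counted next, from lists that leave out the 6 genes and hold 84 others, of which 63 were measured. In KO against WT, limma called 3 of 63 with LPS and 3 of 63 unstimulated, all higher in KO, and the list medians were 0.04 and 0.05. These 3 genes were Cst7, Ctsw and Gfi1 in both comparisons. With LPS in KO 2 of 63 were called, Cxcl1 and Cxcl2, and in WT 0 of 63.

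Among 4 other chitinase family genes, none was called. Chil1, which encodes a further chitinase-like protein without enzyme activity, measured 4.61, 5.24 and 3.35 in KO with LPS and 4.78, 4.93 and 3.40 in KO unstimulated, against 3.61, 3.33 and 3.10 in WT with LPS and 3.56, 3.47 and 2.99 in WT unstimulated. It differed by 1.05 with LPS and 1.02 unstimulated (limma adjusted p = 0.329 and 0.533), with array 3 again the lowest. Chia1, an active chitinase, differed by -0.08 and 0.04 (limma adjusted p = 0.821 and 0.973), and Chid1 by 0.25 and 0.20 (limma adjusted p = 0.348 and 0.654).

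Of 6 other stefins and cystatins, 1 was called. Cst7, or cystatin F, an inhibitor that acts inside the granules of cytotoxic and myeloid cells, measured 4.07, 4.07 and 4.19 in KO with LPS and 3.94, 4.14 and 3.80 in KO unstimulated, against 3.50, 3.31 and 3.22 in WT with LPS and 2.86, 2.84 and 3.22 in WT unstimulated. It was higher in KO by 0.77 with LPS (limma adjusted p = 0.0261) and by 0.98 unstimulated (limma adjusted p = 0.0160), and no array of 1 genotype reached the other. Stfa3, a close relative of Stfa2l1 named here after its values were seen, was not called at differences of 1.98 and 2.21 (limma adjusted p = 0.353 and 0.481). It measured 4.56, 5.73 and 1.62 in KO with LPS and 4.55, 5.47 and 2.28 in KO unstimulated, while the 6 WT arrays lay between 1.75 and 2.23, so KO array 3 was at the WT level. Cstb, the widely expressed stefin B, differed by 0.36 with LPS (limma adjusted p = 0.135) and 0.21 unstimulated (limma adjusted p = 0.533).

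Of the 10 cysteine cathepsins, the proteases that stefins block, 1 was called. Ctsw, a cathepsin of NK and cytotoxic T cells, measured 5.05, 4.52 and 5.60 in KO with LPS and 5.04, 5.29 and 5.28 in KO unstimulated, against 3.49, 3.97 and 3.17 in WT with LPS and 3.79, 3.75 and 3.33 in WT unstimulated. It was higher by 1.51 with LPS (limma adjusted p = 0.0254) and by 1.58 unstimulated (limma adjusted p = 0.0248), and KO array 3 was not low. Ctss, the main cathepsin of antigen processing in DCs, differed by 0.22 unstimulated (limma adjusted p = 0.480). Of 9 other whey acidic protein genes 0 were called, and Slpi, a serine protease inhibitor of neutrophils and epithelia, differed by -0.62 with LPS (limma adjusted p = 0.571), where array 2 of KO read 6.84 and the other 2 KO arrays 8.82 and 8.19, and by -0.08 unstimulated (limma adjusted p = 0.984).

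The 2 genes of these lists that rose with LPS in KO are both ligands of Cxcr2. Cxcl1 measured 5.68, 5.62 and 5.32 in KO with LPS and 3.24, 3.21 and 2.83 in KO unstimulated, against 6.41, 5.45 and 5.31 in WT with LPS and 5.25, 4.30 and 4.34 in WT unstimulated. In KO it rose by 2.44 with LPS (limma adjusted p = 0.0025), and the 3 pairs differed by 2.44, 2.41 and 2.48. In WT the pairs differed by 1.17, 1.15 and 0.97, which was not called without the block (1.10, limma adjusted p = 0.438) and was called with it (limma adjusted p = 0.00137). The difference between these LPS effects was 1.35 and was not called (limma adjusted p = 0.970, and 0.0558 with the block), but it was called in the blocked fit without array 2 of KO with LPS (1.36, adjusted p = 0.0294). Unstimulated, Cxcl1 was 1.53 lower in KO than in WT (limma adjusted p = 0.0615), which passed the test without array 2 of KO with LPS (adjusted p = 0.0271).

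Cxcl2 measured 9.33, 9.29 and 8.46 in KO with LPS and 7.83, 7.45 and 6.27 in KO unstimulated, against 8.81, 8.56 and 8.15 in WT with LPS and 8.09, 7.63 and 7.68 in WT unstimulated. It rose by 1.84 with LPS in KO (limma adjusted p = 0.0490, and 0.000289 with the block). That call was lost under 4 other settings, with adjusted p up to 0.0766, and was kept in 2 of 12 fits without 1 array. In WT it differed by 0.71 (limma adjusted p = 0.9997), which was called in the blocked fit without array 2 of KO with LPS (adjusted p = 0.027). In each of the 6 pairs, Cxcl1 and Cxcl2 were higher with LPS and Cxcr2 was lower. Ppbp, a Cxcr2 ligand of platelets, differed by 2.03 and 2.06 between KO and WT with LPS and unstimulated (limma adjusted p = 0.252 and 0.400).

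Downstream of Csf3r, 0 of 13 measured pathway genes were called between genotypes. Csf3, the ligand, named here after its values were seen, stayed under the median gene on all 12 arrays, with 2.19 as its highest value. Jak2 differed by -0.17 unstimulated (limma adjusted p = 0.871) and Stat5a by -0.31 (limma adjusted p = 0.875). Stat5a differed by 0.52 between LPS and unstimulated in KO and by 0.74 in WT (limma adjusted p = 0.660 and 0.947). With the pairs as a block it was called in WT (adjusted p = 0.0412), and without array 2 of KO with LPS the blocked fit called it in both genotypes (adjusted p = 0.0226 in KO and 0.0026 in WT) and called Socs3, an inhibitor of this pathway, in WT (0.79, adjusted p = 0.0313). Of 6 other colony-stimulating factor genes 0 were called, with Csf2rb, the shared beta chain for GM-CSF and interleukin-3, at -0.18 between KO and WT unstimulated (limma adjusted p = 0.837). The LPS difference of Csf2rb was -0.59 in KO and -0.59 in WT and was not called (limma adjusted p = 0.212 and 0.494), but without array 2 of KO with LPS it was called lower with LPS in KO (-0.81, adjusted p = 0.00524) and in WT (-0.59, adjusted p = 0.0294).

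Of 9 transcription factors of granulocyte development 1 was called. Gfi1, a repressor needed for neutrophil maturation and also made by lymphocytes, measured 4.91, 4.43 and 5.26 in KO with LPS and 5.07, 4.92 and 5.79 in KO unstimulated, against 3.42, 3.67 and 3.44 in WT with LPS and 3.34, 4.0 and 3.76 in WT unstimulated. It was higher by 1.36 with LPS (limma adjusted p = 0.0420) and by 1.56 unstimulated (limma adjusted p = 0.0248), and KO array 3 was its highest KO array in both groups. Cebpb differed by 1.21 with LPS (limma adjusted p = 0.248) and 0.68 unstimulated (limma adjusted p = 0.723). It measured 7.29, 8.90 and 6.66 in KO with LPS, where array 2 was the high one, and 7.18, 7.59 and 6.98 in KO unstimulated. Cebpd, named here after its values were seen, was not called. It measured 4.72, 4.68 and 3.29 in KO with LPS and 4.33, 4.45 and 3.29 in KO unstimulated, and its WT arrays lay between 3.27 and 3.70. The low array 3 of the 6 genes was thus not seen in Ctsw or Gfi1, and Cst7 had it in KO unstimulated but not with LPS. Cebpb and Cebpd, by contrast, were lowest on array 3 in both KO groups. Leaving out 1 array at a time, Cst7 was still called in 8 of 12 fits in each comparison, Ctsw in 7 with LPS and 5 unstimulated, and Gfi1 in 5 with LPS and 6 unstimulated, and the sizes ran from 0.70 to 1.78 over the 3 genes.

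**Figure D4:**
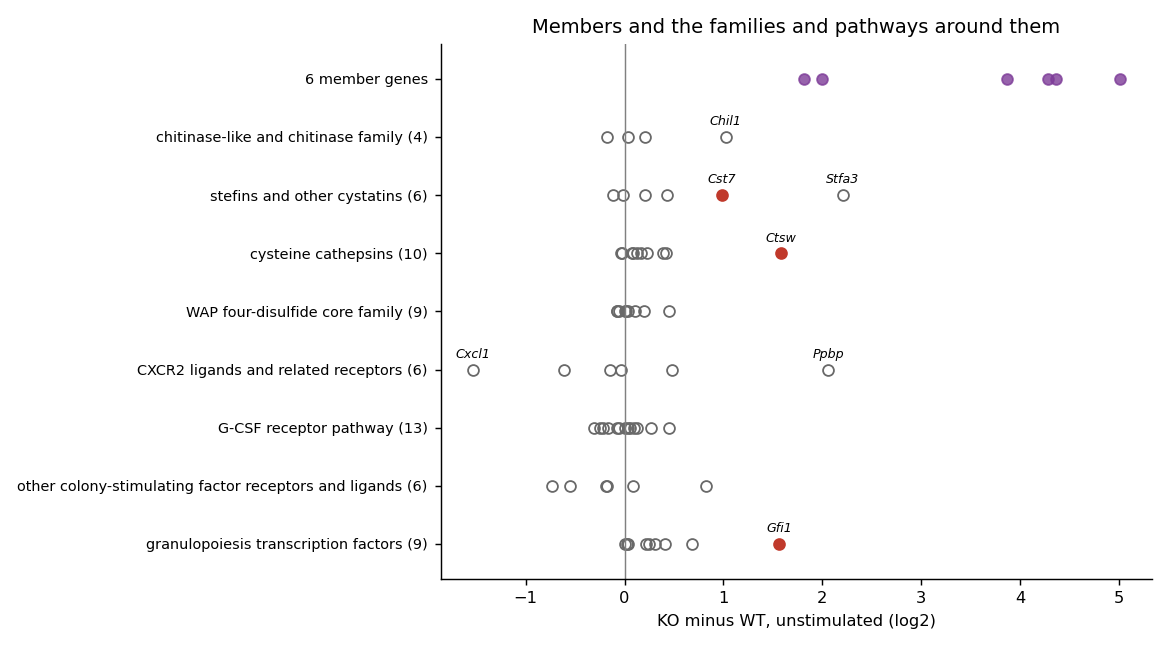
KO minus WT log2 difference in unstimulated DCs (horizontal axis) for the 6 genes and for each measured gene of 8 family and pathway lists (vertical axis, number measured in brackets), with genes called by limma in filled red. The 6 genes lie between 1.81 and 5.01 because they were selected on this difference, and of the 63 others Cst7, Ctsw and Gfi1 are called.

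The genes whose pattern was most like the 6 were ranked by Pearson's r with the mean of their standardized profiles over the 12 arrays, among 8736 genes, as a description. The highest were Ltf (0.990), Hp (0.988), Mrgpra2b (0.988), Mmp9 (0.987), Slfn4 (0.985), Pygl (0.983), Cd33 (0.983) and Hdc (0.978), of which the first 4 were on the neutrophil list. That list was chosen with earlier results of these data known, so the overlap is not independent of them. With group means removed, which leaves the variation between arrays of a group, the highest were C5ar1 (0.992), Hp (0.989), Pygl (0.988), Anxa1 (0.987), Mmp9 (0.985), Nfe2 (0.984), Cd33 (0.984) and Fpr2 (0.984). Of these only Hp and Mmp9 were on the neutrophil list. The arrays share the genotype difference in the first ranking and the low array 3 in both. Each of the 6 genes correlated with the mean of the other 5 at 0.931 (Csf3r) to 0.991 (Stfa2l1) over the arrays, and at 0.881 (Wfdc21) to 0.983 (Chil3) with group means removed.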

How the data were processed

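Per the labels' protocols, RNA of splenic DCs was amplified with the WT-Ovation Pico system from oligo(dT) as well as random primers, and biotin-labelled product was put on Affymetrix arrays. The deposited values are log2 signals that the authors normalised with RMA, per the submitters' processing notes, whose version the sources used here do not give. Of 45141 probe sets, 28898 had 1 gene symbol and were kept, and the probe set with the highest mean stood for a gene, giving 17097 genes. Chil4 was the only one of the 6 genes with more than 1 probe set. No filter on dim genes was applied. The number of arrays limits the precision.

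One model of 4 group means was fitted to all genes with limma 3.58.1 in R 4.3.3 (lmFit, eBayes, 8 residual degrees of freedom), and genes were called at a Benjamini-Hochberg adjusted p under 0.05 over 17097 genes. It was tested on simulated data in which a gene's spread was equal in all 4 groups. The 6 genes do not have equal spreads, so that test does not cover their case. The labels do not say whether same-numbered LPS and unstimulated arrays share a mouse. They were treated as pairs in a named alternative because the correlation of their deviations was over 0.1 in each of the 6 pairs, against -0.34 to -0.03 for different numbers. Deviations cancel within each group, so positive values for like numbers push those for different numbers down. The pairs were thus chosen from the same values that the blocked fits use.

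The 6 genes and all lists were chosen with earlier results of these data known. Named besides the 6 genes were, from each family and pathway list, genes called in any comparison and some uncalled ones, not always those with the highest mean. Also named were the 8 genes most like the 6 in each ranking, and defining or called cell type markers. Promoter letters were searched in 32851 RefSeq windows. Alternatives were other rules for probe sets, a filter on dim genes, trended and robust eBayes, centring, quantile normalisation, array weights, replicate blocks and leaving out each array.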

Additional observations from a re-analysis of the deposited data

How the results depend on the processing

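The KO to WT differences of the 6 genes kept their sign under every setting run. Only the rule for probe sets changed a size by more than the replicate spread: with the mean of both probe sets, Chil4 differed by 1.87 with LPS and 2.26 unstimulated. Leaving out 1 array at a time moved the median difference of the 6 genes between 3.13 and 4.74 with LPS and between 3.47 and 5.03 unstimulated. With 3 arrays a group, LPS effects on genes that spread this widely were not resolved, and pairing the arrays left 5 of the 6 genes uncalled.

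The fixed replicate block called 1 of the 6 genes for LPS in KO (Cxcr2, limma adjusted p = 0.0362) and changed no other call among them. Over all genes that block called 148 of 17097 for LPS in KO, against 67 without the block. Array weights turned the LPS difference in KO of Chil3 to -0.44 and of Wfdc21 to -0.46, and the difference between LPS effects of Wfdc21 to -0.73. An alternative chosen after seeing the data, the fixed replicate block without array 2 of KO with LPS, turned the last 2 to -0.017 and -0.29. Leaving out 1 array at a time called 0 of the 6 genes in any LPS comparison. The LPS difference in KO then ran from -0.86 to 0.89 for Chil3, -1.49 to 0.0884 for Chil4, -1.22 to 1.06 for Stfa2l1, -0.61 to 1.63 for Wfdc21, -1.36 to 0.0587 for Cxcr2 and -1.48 to -0.28 for Csf3r. In WT it ran from -0.16 to 0.52, -0.0212 to 0.24, -0.36 to 0.53, 0.23 to 0.32, -0.37 to 0.19 and -0.68 to 0.0904 for the same genes in that order. The difference between LPS effects ran from -1.06 to 0.70, -1.61 to -0.03, -1.37 to 0.91, -0.88 to 1.35, -1.24 to 0.18 and -1.18 to 0.0186. Each such omission leaves 1 array without its pair. Cxcr2 in KO turned sign without array 3 of KO with LPS and in no other of these fits, and Csf3r in KO in none. The cause was not tested.

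Of the family and pathway genes called with LPS in WT, the count of 0 became 2 with the fixed replicate block, 1 with a block by number over all arrays and 5 with the fixed block without array 2 of KO with LPS. In KO the count of 2 became 1 with all probe sets, 1 with trended and robust eBayes, and 4 with the fixed block without that array. It stayed at 2 with the mean of probe sets and with array weights. Under array weights those calls included a gene other than Cxcl1 and Cxcl2, which was not identified. Cxcl2 in KO lost its call with all probe sets (adjusted p = 0.0570), with the mean of probe sets (0.050), with trended and robust eBayes (0.0509) and with array weights (0.0766), and was still called in 2 of 12 fits without 1 array, while Cxcl1 was called in 12 of 12. Leaving out 1 array gave 0 to 7 called genes in KO against WT with LPS, where 7 came without array 3 of KO with LPS, and 0 to 4 unstimulated. It gave 1 to 3 called genes with LPS in KO and 0 to 1 in WT. The count with LPS was 0 without any 1 of the WT LPS arrays, and the count unstimulated was 0 without array 1 or 2 of unstimulated WT or of unstimulated KO.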

Other observations

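The mean of 6 measured platelet markers was 5.41, 4.04 and 3.84 in KO with LPS and 5.11, 4.07 and 4.14 in KO unstimulated, against 3.35, 3.80 and 3.47 in WT with LPS and 3.23, 3.70 and 3.58 in WT unstimulated, so every KO array lay above every WT array under the same treatment, and array 1 was the high array in both KO groups. Pf4 and Ppbp differed by 1.68 and 2.03 between KO and WT with LPS and by 1.85 and 2.06 unstimulated. By limma, 0 of these 6 markers were called between genotypes. The mean of 7 B cell markers was 5.58, 4.46 and 5.85 in KO with LPS and 5.82, 5.14 and 5.89 in KO unstimulated, where array 2 was the low array in both, against 5.42, 5.73 and 5.41 in WT with LPS and 5.48, 5.75 and 5.56 in WT unstimulated. The mean of 8 T cell markers ran from 3.52 to 3.83 in KO with LPS and from 3.74 to 3.82 in KO unstimulated, against 3.80 to 4.21 in WT with LPS and 3.83 to 4.27 in WT unstimulated.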
